A study of Homo sapiens with 4 samples.

Results

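Long chromatin loops, with at least 500 kb between the starts of their anchors, were taken from the loop lists of SMC1 FA-EGS HiChIP and CTCF FA-HiChIP in the HG00731 lymphoblastoid cell line (LCL). The members were selected on a measured value, the span, so the span is a description and carries no test. On chromosomes 1 to 22, 839 of 27785 loops (3.02%, 95% Wilson interval 2.82 to 3.23) reached this span in the SMC1-labelled list, and 3379 of 79406 (4.26%, interval 4.12 to 4.40) in the CTCF-labelled list. Together these are 4218 of the 108499 loops in both whole lists. A further 13 and 63 long loops on chromosome X were left out.

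HiChIP joins proximity ligation of cross-linked chromatin to immunoprecipitation of a protein, so that read pairs report contacts at sites that the protein occupies. Both groups were cultures of the same LCL, a B cell line immortalised with Epstein-Barr virus, and the labels name no treatment. The growth protocol in the labels gives a different number for the line than all other labels, which were followed here. For SMC1, a subunit of the cohesin ring, chromatin was fixed with formaldehyde (FA) and then with ethylene glycol bis(succinimidyl succinate) (EGS), and for CTCF with FA alone. Each target had 2 biological replicates, and the deposited peaks and loops come from the pooled replicates. Calls on single replicates, which the methods also mention, were not analysed here. Every value below therefore describes a pooled list, no value has a spread between replicates, and target and fixation cannot be told apart.

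Cohesin is thought to enlarge a loop of chromatin until it meets CTCF bound in a given orientation, and loop anchors often carry CTCF motifs that point at each other. Such loops divide chromosomes into neighbourhoods in which enhancers and promoters meet more often. In B cells the same machinery brings distant segments together, for example in the immunoglobulin heavy chain locus.

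A limit on the labels applies to everything that follows. The loops were called with the HiChIP peaks of their own target, yet in the SMC1-labelled list a CTCF peak lay at 1 or both anchors of every loop, with 0 of 27785 lacking it at both, whereas 11 loops had no SMC1 peak at either anchor. In the CTCF-labelled list the reverse held: 0 of 79406 loops lacked an SMC1 peak at both anchors and 3654 (4.60%) lacked a CTCF peak at both. The number of loops per target in the supplement of the study also goes against the labels. It gives 80487 loops for SMC1 and 28012 for CTCF in HG00731. Those are the totals of the whole lists labelled CTCF and SMC1, in that order. The lists are therefore named by their labels, as the SMC1-labelled list and the CTCF-labelled list, and no direction between the targets is drawn from them. The peak lists are not touched by this.

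CTCF motifs at the anchors are shown first, since their orientation is compared further on. A motif of 19 bp was learned from the 3000 CTCF peaks with the highest -log10 q-value, with the most frequent bases GGCCACCAGGGGGCGCCGG. A match of at least 10 bits on either strand was found within 50 bp of 39.2% of these summits, in the same windows that the motif was learned from. Control windows of the same length had one in 5.47%. Loop anchors were scored within 100 bp of their strongest CTCF summit. A long loop is convergent when the match at the left anchor is on the plus strand and the match at the right anchor is on the minus strand. The lines below give hg38 reference sequence, 5′ to 3′ on the strand that carries the match, with the match in capitals. The IRF2BP2 pair belongs to the long loop with the most read pairs in the SMC1-labelled list, the PBX3 pair to a loop of 990 kb and the CCND1 site to the highest count over expected in the SMC1-labelled list. The JAG1 pair, also from a loop of 990 kb, is an exception, with both matches on the minus strand.
IRF2BP2 loop, left anchor, plus strand: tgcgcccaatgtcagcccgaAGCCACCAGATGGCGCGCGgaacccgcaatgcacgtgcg
IRF2BP2 loop, right anchor, minus strand: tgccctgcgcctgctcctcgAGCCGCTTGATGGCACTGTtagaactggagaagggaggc
PBX3 loop, left anchor, plus strand: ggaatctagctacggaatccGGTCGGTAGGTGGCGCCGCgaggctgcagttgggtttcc
PBX3 loop, right anchor, minus strand: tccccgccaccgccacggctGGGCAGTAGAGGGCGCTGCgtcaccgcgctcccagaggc
JAG1 loop, left anchor, minus strand: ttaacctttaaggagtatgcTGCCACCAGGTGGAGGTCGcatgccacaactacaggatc
JAG1 loop, right anchor, minus strand: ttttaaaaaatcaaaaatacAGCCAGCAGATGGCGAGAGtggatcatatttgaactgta
CCND1 loop, right anchor, minus strand: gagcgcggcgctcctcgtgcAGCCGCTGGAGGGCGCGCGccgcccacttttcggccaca

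The IRF2BP2 sites lie between genes at chr1:234499217-234499275 and chr1:235083864-235083922, with scores of 19.3 and 13.3 bits. The left PBX3 site, chr9:125408120-125408178, is between genes and the right one, chr9:126398636-126398694, is in an intron of MVB12B. The left JAG1 site, chr20:10553520-10553578, is in an intron of SLX4IP, and the right one, chr20:11544214-11544272, is between genes and lies 228 bp from its summit, outside the window of 100 bp. The CCND1 site, chr11:69643481-69643539, is in an intron of CCND1. At the left anchor of that loop there is no CTCF peak, and hence no site to compare.

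Long loops rested on few read pairs that were many for their distance. The median loop had 15 read pairs against 2.26 expected in the SMC1-labelled list, and 17 against 2.33 in the CTCF-labelled list. Loops under 500 kb had medians of 22 against 5.37 and 23 against 5.79. The count over expected was accordingly higher for the long loops, 7.07 (95% rank interval 6.86 to 7.32) against 3.94 in the SMC1-labelled list and 7.73 (7.59 to 7.83) against 3.94 in the CTCF-labelled list. Part of this is set by how the lists were made, since they hold no loop with fewer than 12 read pairs or a ratio under 2. A loop of 12 read pairs would already have a median ratio of 5.30 at the expected values of the long loops labelled SMC1 and 5.15 at those labelled CTCF, against 2.23 and 2.07 for the shorter loops. Counts of 12 to 14 made up 42.4% of the long loops labelled SMC1 and 31.4% of those labelled CTCF, against 17.3% and 15.7% of the shorter loops. No test was made between long and shorter loops, here or below, because loops share anchors and each target has 1 list. All intervals cover counting error only.

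**Figure D1:**
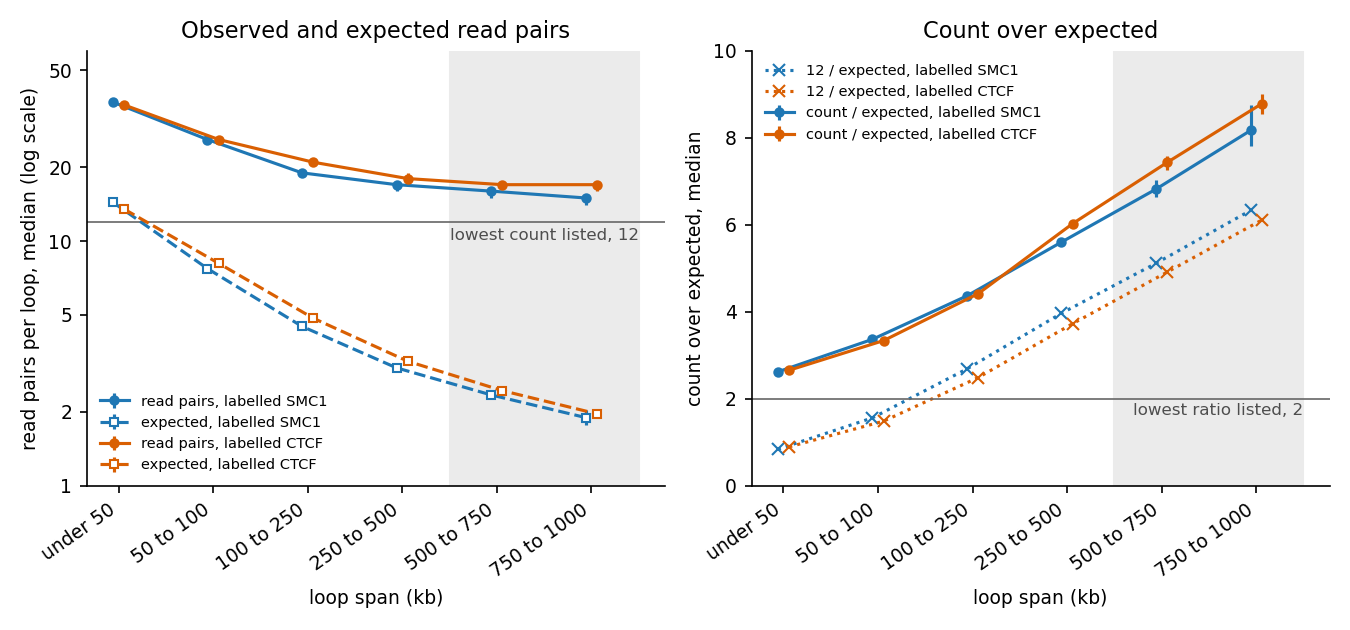
Median read pairs and expected read pairs per loop (left, log scale) and median count over expected (right) against the loop span in kb, for the lists labelled SMC1 and CTCF. Bars are 95% rank intervals, crosses give the ratio that 12 read pairs would have, and the grey band holds the long loops, whose count stays near 15 to 17 while the expected value falls to about 2.

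At the threshold the values were level in the CTCF-labelled list and lower at 500 kb than at 495 kb in the SMC1-labelled list, on few loops. In the SMC1-labelled list, the 33 loops of 495 kb had a median ratio of 6.87 and the 30 loops of 500 kb one of 5.90. In the CTCF-labelled list, the 113 loops of 495 kb had 7.12 and the 87 loops of 500 kb had 7.13. CTCF peaks lay at both anchors of 72.7% and then 63.3% of these loops labelled SMC1, and of 67.3% and 66.7% labelled CTCF. The long loops had a median span of 600 kb (quartiles 540 and 710) in the SMC1-labelled list and 615 kb (quartiles 545 and 730) in the CTCF-labelled list, and both lists end at 1000 kb. Loops of 750 kb or more numbered 159 and 751, and loops of 900 kb or more 41 and 214.

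Many long loops were neighbours of each other. Loops that matched within 15 kb at both anchors formed 440 groups in the SMC1-labelled list, of which 263 held 1 loop and the largest 18. The CTCF-labelled list had 1748 groups, 1015 of 1 loop, with at most 20 in a group. The 839 loops used 1100 distinct anchors and the 3379 loops used 4058, and 820 and 2694 of these served 1 long loop each. At the other end an anchor served up to 18 and 28 long loops. Anchors that were the left end of a long loop and the right end of another were few, 6 and 33. Shorter loops with both anchors at or between those of a long loop were common, and these include loops that share an anchor with it. Their median number was 4 in the SMC1-labelled list and 15 in the CTCF-labelled list, while 226 and 318 long loops held none. For the IRF2BP2 loop labelled SMC1 there were 33, of which 0 lay wholly between its anchors.

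The strongest long loop labelled SMC1 enclosed IRF2BP2, a corepressor that binds interferon regulatory factor 2. It joined chr1:234495001-234500000 to chr1:235080001-235085000, over 585 kb, with 111 read pairs against 5.10 expected, a ratio of 21.8 (95% Poisson interval 17.9 to 26.2). The same bins had 159 read pairs and a ratio of 20.01 in the CTCF-labelled list. The nearest coding starts, of TARBP1 and TOMM20, were 15822 and 43837 bp from the anchors. The CTCF peaks at the anchors had -log10 q-values of 327 and 325, and of the 22 CTCF peaks between them 0 was stronger than the weaker anchor. IRF2BP2 was the only coding gene that started between the anchors.

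**Figure D2:**
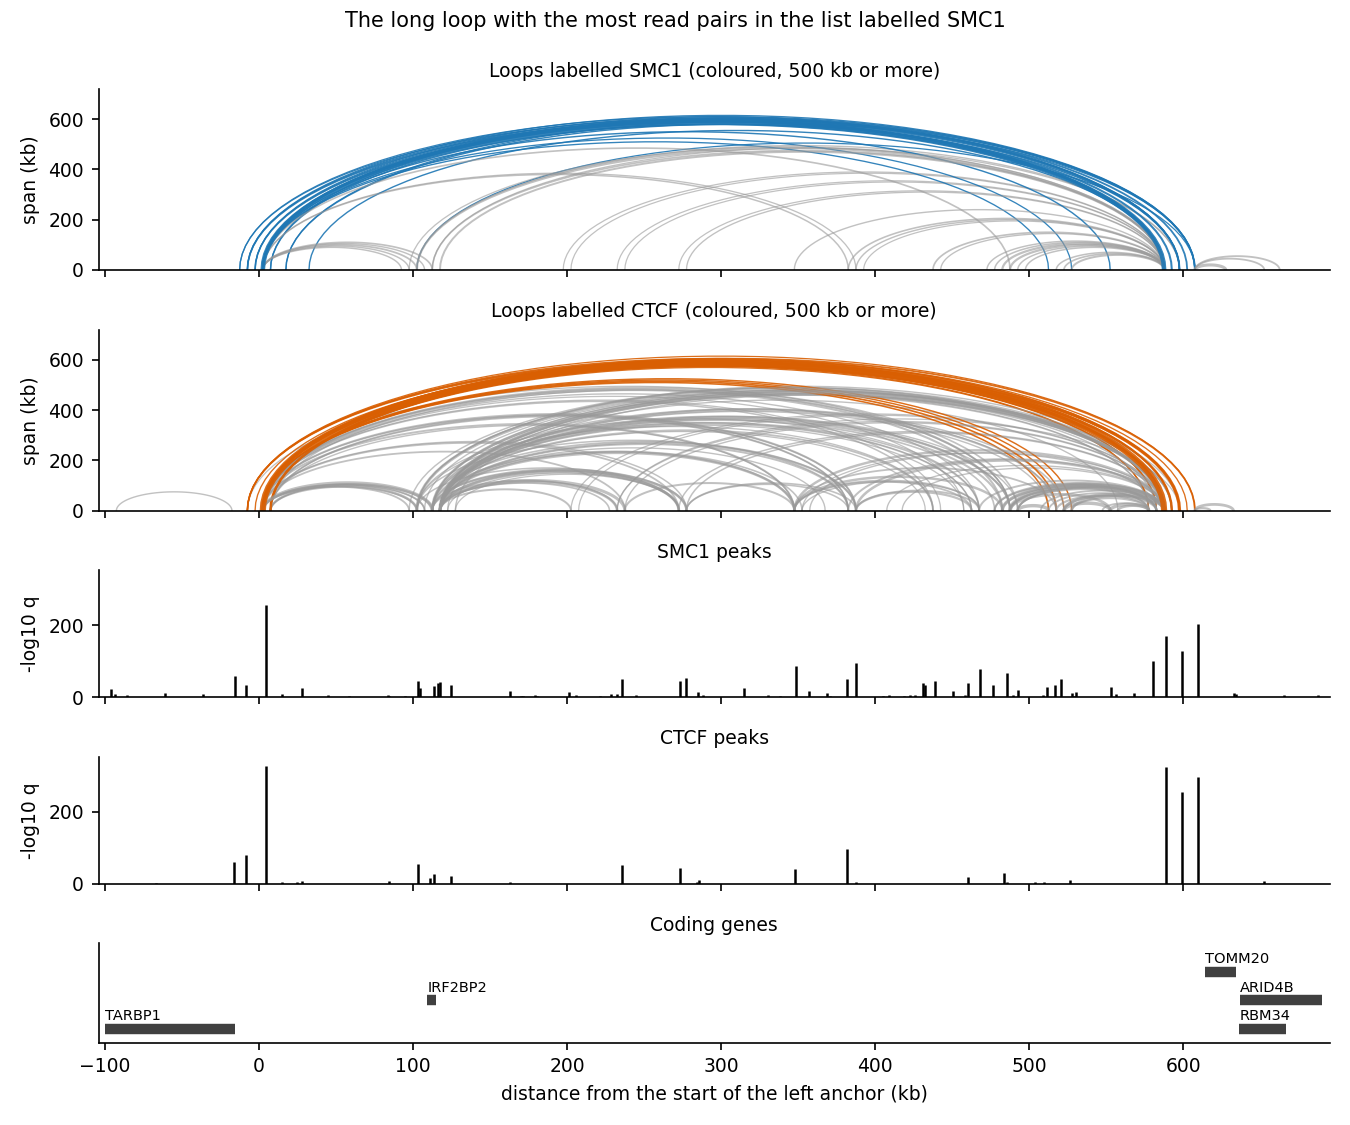
Loops of both lists (arcs, height is the span in kb, width follows the read pairs), SMC1 and CTCF peaks (-log10 q-value) and coding genes around the IRF2BP2 loop, by distance in kb from the start of its left anchor. Of the loops within the window, 22 of 60 labelled SMC1 and 21 of 149 labelled CTCF span 500 kb or more, and most of them start and end near the tallest CTCF peaks.

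Other long loops with many read pairs were also shared by both lists. In the CTCF-labelled list the strongest, of 520 kb, ran from an intron of EGF, which encodes epidermal growth factor, to an intron of ENPEP, an aminopeptidase. It had 207 read pairs against 8.14 expected (ratio 25.4), and 80 in the SMC1-labelled list (ratio 12.0). A loop of 755 kb that ended within KAT6B, a histone acetyltransferase, had 177 and 61 read pairs in the lists labelled CTCF and SMC1. A loop of 565 kb that ended in an intron of MAP3K1, a signalling kinase, and one of 595 kb around NREP had 181 and 179 read pairs in the CTCF-labelled list, against 51 and 32 in the SMC1-labelled list.

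The 5 loops with the highest ratios in each list had 1.76 to 5.32 read pairs expected. Labelled CTCF, a loop of 850 kb on chromosome 7 that began in an intron of TMEM196 and enclosed MACC1 and ITGB8, the last an integrin subunit, reached 35.7 (interval 30.2 to 42.0) from 148 read pairs against 4.14 expected. A loop of 880 kb around GALNT17, a glycosyltransferase gene, and a loop of 835 kb from the promoter of NLRP1, an inflammasome sensor, both had a ratio of 34.6. In the SMC1-labelled list, the highest ratio was 26.1 (interval 19.2 to 34.7), for a loop of 535 kb that ended at the promoter of CCND1, the G1 cyclin D1. It had 47 read pairs against 1.80 expected, and 24 read pairs in the CTCF-labelled list. The anchor at CCND1 had a CTCF -log10 q-value of 286, whereas the far anchor, at TPCN2, held no CTCF peak and an SMC1 peak of 8.10. The NLRP1 loop was convergent with both motif windows widened to 400 bp, as were the EGF to ENPEP and NREP loops.

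The 3 longest loops found with identical bins in both lists were near the upper limit of the span. A loop of 1000 kb from the promoter of BDNF, a neurotrophin, had 17 read pairs in the SMC1-labelled list and 31 in the CTCF-labelled list. A loop of 990 kb enclosed PBX3, a homeobox factor, and MAPKAP1, a subunit of mTORC2, with 30 and 26 read pairs. The other loop of 990 kb enclosed JAG1, a ligand of Notch receptors, as the only coding start between its anchors, with 12 and 32. The Poisson intervals of their ratios in the SMC1-labelled list (6.72 to 18.5, 7.19 to 15.2 and 4.18 to 14.1) overlap, so their order is not resolved there. Their ratios in the CTCF-labelled list were 18.5, 7.98 and 14.004.

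Peaks of both proteins sat at both anchors of most long loops. An SMC1 peak lay at both anchors of 78.4% (interval 75.5 to 81.1) of the long loops labelled SMC1 and 83.3% (82.0 to 84.5) of those labelled CTCF, against 66.9% and 70.3% of the shorter loops. For CTCF peaks the shares were 70.1% (66.9 to 73.1) and 73.2% (71.7 to 74.7), against 57.4% and 46.6%. All 4 peaks were present in 68.3% and 72.4% of the long loops, against 53.2% and 44.4%. The higher share of CTCF peaks was seen at low and at high counts. For loops labelled CTCF it was 58.6% against 29.96% at 12 to 14 read pairs and 92.0% against 61.8% at 30 or more, and the share was higher for long loops on 22 of 22 chromosomes (21 of 22 in the SMC1-labelled list). Long loops with no CTCF peak at either anchor numbered 0 of 839 labelled SMC1, where the whole list holds none, and 13 of 3379 labelled CTCF (0.385%, interval 0.225 to 0.657). These 13 had 12 to 19 read pairs, and 2 of them ended at the promoter of ZFP36L1, an RNA-binding regulator of B cell development, and 1 at that of PTGER4, a prostaglandin receptor.

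**Figure D3:**
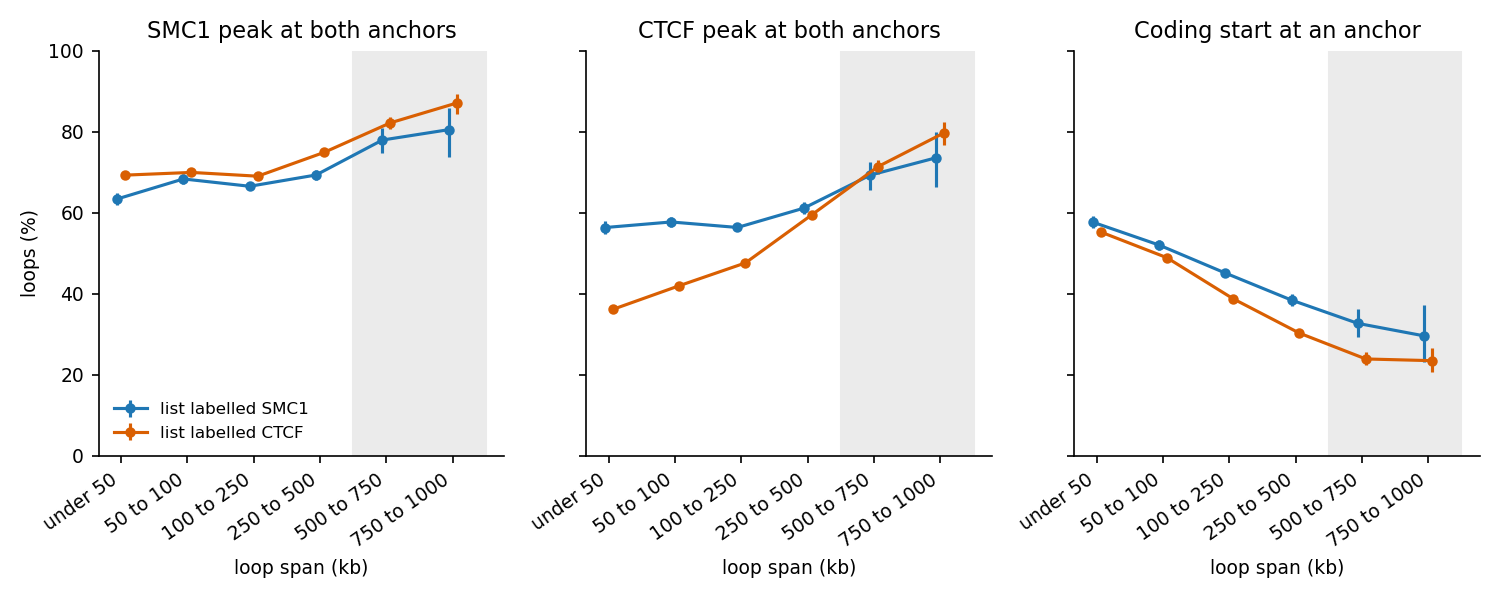
Share of loops (%) with an SMC1 peak at both anchors, a CTCF peak at both anchors, and a protein-coding start within 1 kb of an anchor, against loop span in kb, for both lists. Bars are 95% Wilson intervals and the grey band marks long loops, where peaks at both anchors reach 73.6% to 87.1% at 750 kb or more and coding starts fall to 29.6% and 23.4%.

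The anchor peaks had somewhat higher medians in the long loops than in all shorter ones together, but not in every band of span. The median CTCF -log10 q-value over anchors with a peak was 171 against 153 in the SMC1-labelled list and 114 against 105 in the CTCF-labelled list, and for SMC1 peaks 126 against 114 and 91.8 against 75.5. In the CTCF-labelled list the loops of 250 to 500 kb already had 115 for CTCF and 92.3 for SMC1. In the SMC1-labelled list the SMC1 median was 105.7 at 750 kb or more, under that of the shorter loops. Between the anchors peaks were sparser per length than inside shorter loops, with 5.78 against 8.17 SMC1 peaks and 2.64 against 4.30 CTCF peaks per 100 kb in the SMC1-labelled list. The CTCF-labelled list had 5.02 against 7.37 and 2.17 against 3.51. Even so a long loop passed a median of 16 CTCF peaks in the SMC1-labelled list and 13 in the CTCF-labelled list. A median of 2 of them were stronger than the weaker anchor, and in 23.6% and 20.7% of the loops with CTCF at both anchors 0 were stronger.

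The CTCF motifs of long loops mostly pointed at each other. Within 100 bp of the strongest CTCF summit, both anchors had a match in 199 long loops labelled SMC1 and 581 labelled CTCF. Of these, 76.9% (interval 70.6 to 82.2) and 77.5% (73.9 to 80.7) were convergent, against 56.4% of 4250 and 58.9% of 7680 shorter loops. Matches in the same direction made up 20.6% and 21.7% of the long loops against 38.0% and 37.0%, and divergent ones 2.51% and 0.861% against 5.65% and 4.14%, which is 5 long loops in each list. The convergent share was higher for long loops on 16 of 19 chromosomes with at least 5 such loops in the SMC1-labelled list and on 18 of 21 in the CTCF-labelled list. Within 100 bp only 23.7% and 17.2% of long loops could be scored. With a window of 400 bp, chosen after the data were seen, 479 and 1876 could be scored and 82.0% and 81.5% were convergent, against 60.1% and 62.0% of the shorter loops.

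**Figure D4:**
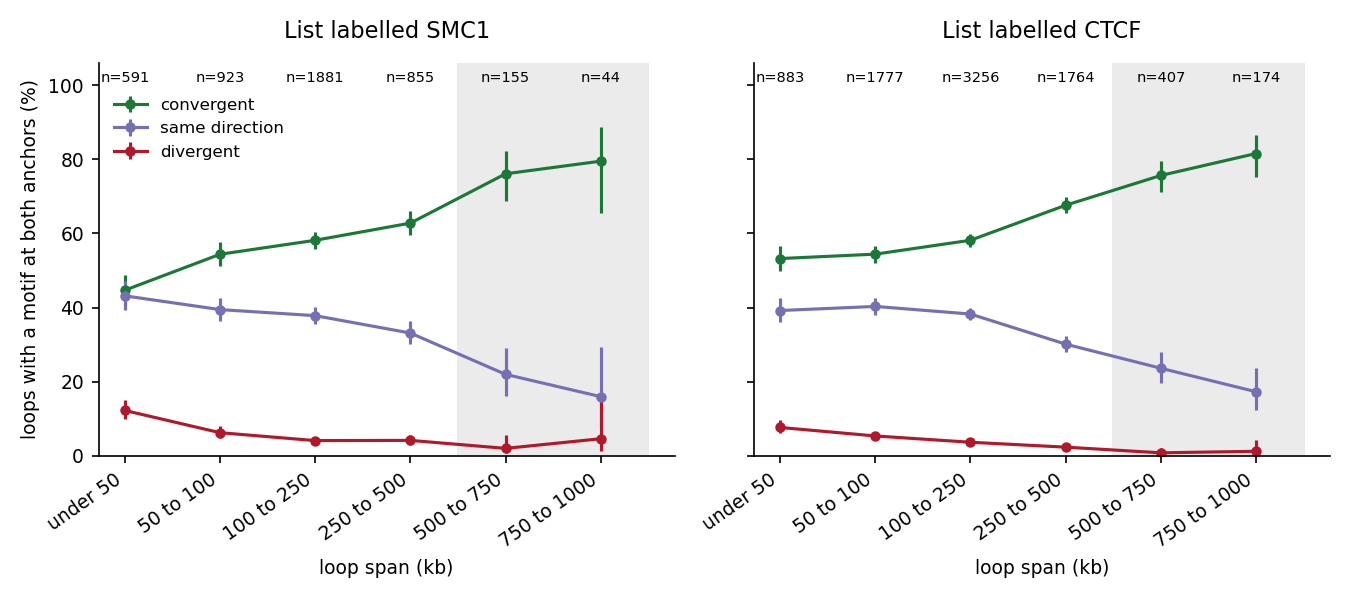
Share of loops (%) with convergent, same-direction and divergent CTCF motifs, of the loops with a match of at least 10 bits within 100 bp of the CTCF summit at both anchors, against loop span in kb. Bars are 95% Wilson intervals, n is the number of loops scored, and the convergent share goes from 44.7% and 53.2% under 50 kb to 79.5% and 81.6% at 750 kb or more.

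Promoters were less frequent at the anchors of long loops. A protein-coding start lay within 1 kb of at least 1 anchor in 32.1% (interval 28.99 to 35.3) of the long loops labelled SMC1 and 23.8% (22.4 to 25.2) of those labelled CTCF, against 47.5% and 42.2% of the shorter loops. This share was higher for the long loops on 6 of 22 chromosomes in the SMC1-labelled list and on 1 of 22 in the CTCF-labelled list. Starts at both anchors were found in 34 (4.05%) and 63 (1.86%) long loops, against 9.56% and 7.49%. With the starts of all annotated genes, noncoding ones included, 55.2% and 45.5% of the long loops had a start at an anchor, against 71.3% and 64.9% of the shorter loops. Among the pairs of coding starts, SETBP1 with SLC14A2 on chromosome 18 had the most read pairs in both lists, 95 labelled CTCF and 47 labelled SMC1, over 535 kb. The promoter of POLQ, a DNA polymerase of end joining, met that of CD86, a costimulatory ligand of B cells, with 45 read pairs against 11.7 expected in the CTCF-labelled list, a ratio of only 3.86. JUN, an AP-1 subunit, was paired with FGGY with 30 read pairs labelled CTCF and 18 labelled SMC1.

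Of 19103 coding genes, 203 (1.06%) had a start within 1 kb of a long loop anchor in the SMC1-labelled list and 473 (2.48%) in the CTCF-labelled list, and 128 and 267 of them took part in 1 long loop. The genes with the most long loops in the SMC1-labelled list were STAG1, a cohesin subunit, with 9, PPA2, a mitochondrial pyrophosphatase, with 7, and ALKBH2 and RAD51D, both of DNA repair, with 6 each. All 9 loops of STAG1 ran to the left of the gene, on chromosome 3, over 500 to 685 kb, and had up to 39 read pairs. CCND1, the mitochondrial ribosomal gene MRPS12, MYC, NETO2 and NLRP1 had 5 each. Among loops labelled CTCF, POLQ had 15, MYC, a driver of cell growth, 13, STAG1 11, and PALLD, of the actin cytoskeleton, and SGK1, a kinase, 10 each. The 13 loops of MYC fell into 4 groups and reached 60 read pairs but a ratio of at most 5.89. Neighbouring bins count as separate loops here.

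Genes of the cohesin machinery and of B cell regulation were present among the anchors, as counts over lists chosen by function, to be read beside the 1.06% of all coding genes at anchors in the SMC1-labelled list and 2.48% in the CTCF-labelled list. Of 28 B cell transcription factor genes, RUNX1 and MYC (7.14%) were at anchors in the SMC1-labelled list, and BCL6, PRDM1, RUNX1, FOXO1 and MYC (17.9%) in the CTCF-labelled list. PRDM1, the plasma cell regulator, had 3 long loops, the strongest with 37 read pairs against 5.09 expected over 600 kb. BCL6, of germinal centre cells, had 1, with 12 against 1.41 over 925 kb, and FOXO1 1, with 26 against 4.66. Of 26 B cell surface and signalling genes, 0 in the SMC1-labelled list and CD86 alone in the CTCF-labelled list were at anchors, and of 17 T cell genes 0 in either list. Of 12 cohesin and CTCF factor genes on the autosomes, STAG1 and PDS5A, and in the CTCF-labelled list also PDS5B, were at anchors. PDS5A, a regulator of cohesin release, was joined to the region of LIAS with 14 read pairs labelled SMC1 and 40 labelled CTCF. These lists are short, so nothing is read from the order of their shares.

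Developmental genes of other lineages were also at anchors, where 1.06% and 2.48% of all coding genes lay. Of 39 HOX genes, which pattern the body axis, 3 were at anchors in the SMC1-labelled list (HOXB3, HOXB5 and HOXD12) and 8 (20.5%) in the CTCF-labelled list. HOXD12 had the highest ratio of these, 24.9 from 55 read pairs over 730 kb labelled CTCF, and 8.14 from 22 labelled SMC1. HOXA13 had 5 long loops, the strongest over 725 kb with 52 read pairs, and only in the CTCF-labelled list. HOX genes lie in clusters, so a loop can count for several of them. Of 44 other developmental regulators, FGF8 was at an anchor in the SMC1-labelled list, and 7 (15.9%), among them FOXC1, TFAP2B, SHH, BMP2, FGF8 and WNT5A, in the CTCF-labelled list. TFAP2B had a convergent loop of 725 kb with 36 read pairs against 1.93 expected, a ratio of 18.7. Of 37 synaptic and neuronal genes, CSMD3 and BDNF were at anchors in the SMC1-labelled list, with NTRK2, a BDNF receptor, added in the CTCF-labelled list.

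Fewer coding genes per length started inside long loops than inside shorter ones. Merged, they covered 195 Mb (6.78% of the autosomes) in 287 stretches in the SMC1-labelled list and 674 Mb (23.4%) in 910 stretches in the CTCF-labelled list. Coding starts between the anchors numbered 5.91 per Mb and 4.09 per Mb, against 13.6 and 10.01 in the shorter loops, and were denser in the long loops on 0 of 22 chromosomes in both lists. The merged stretches held 6.32 and 5.03 coding starts per Mb, against 6.64 over all autosomes. The median GC content between the anchors was 42.3% and 40.6%, against 46.3% and 43.9%. A long loop enclosed a median of 2 coding starts in either list, and 50 (5.96%) and 371 (11.0%) enclosed 0.

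The loops with the most coding starts between the anchors, chosen for that count, lay over a gene cluster. Loops on chromosome 17 over the type I keratin and keratin-associated protein genes enclosed up to 56 coding starts. The strongest of them, over 860 kb, had 78 read pairs in the CTCF-labelled list (ratio 25.7) and 38 in the SMC1-labelled list (ratio 10.1). Long loops that lay wholly within 1 coding gene numbered 2 in the SMC1-labelled list, in KIAA1217 and RUNX1, and 51 in 25 genes in the CTCF-labelled list. These included KIAA1217 with 5, ANKS1B, LRBA, DLG2, RUNX1 and CNTNAP2.

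The gene lists were read against all coding genes in the same stretches, 6.45% in the SMC1-labelled list and 17.7% in the CTCF-labelled list. Of the developmental regulators, 5 (11.4%) and 23 (52.3%) of 44 started in a stretch spanned by a long loop. Of the HOX genes, 9 (23.1%) and 18 (46.2%) did so, and of the B cell transcription factors 6 (21.4%) and 11 (39.3%). Of the B cell surface and signalling genes, 2 (7.69%) and 3 (11.5%) of 26 were spanned, and of the T cell genes 2 (11.8%) and 3 (17.6%) of 17. Of the synaptic and neuronal genes, 5 (13.5%) and 9 (24.3%) of 37 were in such stretches. Many of these shares rest on a few genes, and no test was made of them.

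Nearly all long loops labelled SMC1 had a counterpart in the other list, and most of those labelled CTCF had none. Within 15 kb at both anchors, 91.7% (interval 89.6 to 93.3) of the long loops labelled SMC1 were matched, as were 91.7% of the shorter loops. Of those labelled CTCF, 38.9% (37.3 to 40.5) were matched, against 54.3% of the shorter loops, and the share was higher for the long loops on only 2 of 22 chromosomes. The lists differ in size, and summed over called loops, which follows their number and is no sequencing depth, they held 788356 and 2666327 read pairs. On chromosomes 1 to 22 the long loops had 1.95% and 2.86% of the read pairs. The matched share rose with the read pairs of a loop, from 28.6% at 12 to 14 to 67.7% at 30 or more in the CTCF-labelled list. Among loops of 30 or more it was close to the 65.4% of the shorter loops. With 1 loop per group of neighbours 22.3% of the long loops labelled CTCF were matched, and with identical bins required 18.7%, against 75.4% of those labelled SMC1. The part of list size or sequencing depth in the unmatched loops was not tested.

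**Figure D5:**
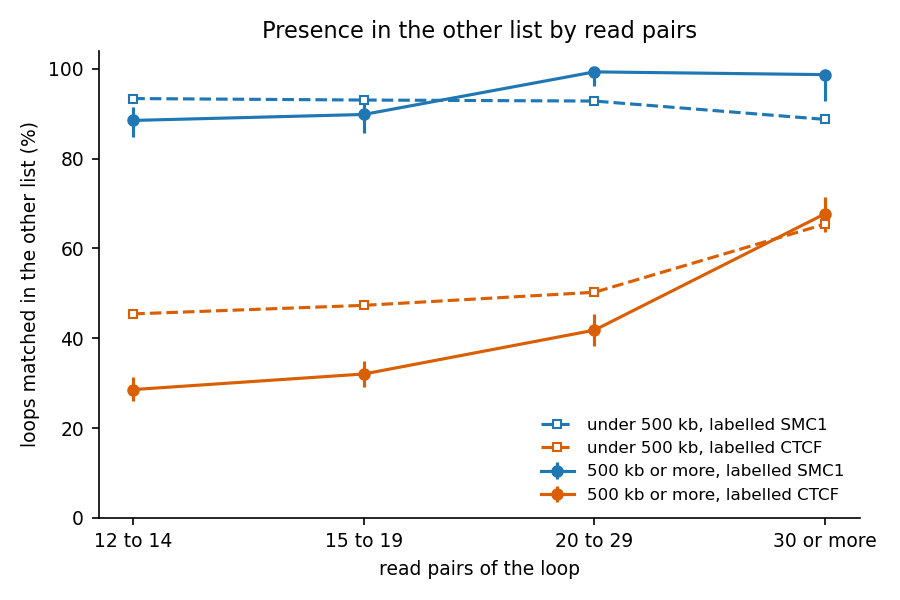
Share of loops (%) matched in the other list within 15 kb at both anchors, by the read pairs of the loop, for long loops (filled points, 95% Wilson intervals) and loops under 500 kb (open squares). In the CTCF-labelled list the long loops lie under the shorter ones up to 29 read pairs (41.8% against 50.2%) and level with them from 30 on.

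The 2065 unmatched long loops labelled CTCF were not poor in peaks. A CTCF peak lay at both anchors of 81.2% of them, against 60.8% of the 1314 matched ones, and 77.6% against 77.3% of those with a motif at both anchors were convergent. Their CTCF peaks were weaker, with a median -log10 q-value of 102 against 138. The unmatched loop with the most read pairs, over 550 kb on chromosome 4, had 124 against 4.83 expected. The coding starts at or nearest to its anchors were those of NCAPG, a condensin subunit, and LCORL. The 70 unmatched long loops labelled SMC1 had a median of 14 read pairs, and 50% had a coding start at an anchor, against 30.4% of the matched ones. The 633 long loops with identical bins in both lists had medians of 16 read pairs labelled SMC1 and 29 labelled CTCF, with more in the CTCF-labelled list in 533, fewer in 79 and the same in 21.

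Long loops were unevenly spread over the chromosomes. Their share of all loops ran from 0.744% on chromosome 19 to 6.49% on chromosome 4 in the SMC1-labelled list, and from 0.649% on chromosome 19 to 7.06% on chromosome 13 in the CTCF-labelled list. Across the 22 chromosomes this share fell as the density of coding genes rose (Spearman's rho of -0.405 and -0.660, given as a description since chromosomes differ in length and base content as well). The number of long loops per 10 Mb had a rho of 0.718 and 0.0898 with gene density. Per 10 Mb, chromosome 17 had the most long loops labelled SMC1, 7.69, and chromosome 12 the most labelled CTCF, 18.7.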

How the data were processed

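SMC1 FA-EGS HiChIP and CTCF FA-HiChIP of HG00731 had 2 biological replicates each, grouped by GEO's labels. The authors aligned to hg38 and called peaks with MACS3 3.0.1 and loops with MAPS between bins of 5 kb, and the deposited lists come from the pooled replicates. They deposited, per loop, the raw count of read pairs, the expected count of the MAPS regression and its q-value, with no normalization. For each peak the authors deposited the fold enrichment at the summit (a ratio) and the -log10 q-value. The lists hold no depth per replicate. The other columns were not used, and 0 columns of unmapped samples were present.

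Spans were taken between anchor starts. The count over expected was computed per loop. Peaks overlapped an anchor by at least 1 bp, coding starts of GENCODE release 44 lay within 1 kb, and a loop matched 1 of the other list when both anchors lay within 15 kb. All 28012 and 80487 loops lie within the hg38 chromosome ends. The motif was learned from 50 bp either side of the 3000 strongest CTCF summits, with controls 1000 bp away. Shares carry 95% Wilson, medians 95% rank and single counts exact Poisson intervals, for counting error only. No test was made, since the deposited lists pool the replicates.

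The members, gene lists and alternatives were chosen with earlier results of these data known. The named loops are the 5 with the most read pairs and the 5 with the highest count over expected per list, 1 per group of neighbours, and the 3 longest with identical bins in both lists. The genes named are those at or next to their anchors, the listed genes at anchors of long loops and the 10 coding genes at the anchors of the most long loops per list. A few items that these rules select are not reported here. Promoter pairs, the keratin loops, loops within genes, and the loops without CTCF peaks or without a match were chosen after their values were seen. The motif, overlap and matching procedures were tested on simulated data. Software was pysam 0.24.0, Numba 0.67.0 and pandas 2.3.3 for the tables, SciPy 1.17.1 for intervals, and Matplotlib 3.10.9 for plots, under Python 3.11.15 with NumPy 2.4.6. Other spans, 1 loop per group, stricter FDR and peaks, other gene, motif and match rules were tried, and the closing section gives their effect.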

Additional observations from a re-analysis of the deposited data

How the results depend on the processing

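No paired analysis was possible because the deposited lists pool both replicates of each target, and for the same reason no replicate could be left out. Of 66 values under an alternative, 18 stayed within the interval of the reported value or within 1.5 times the reported count, and 48 moved. Values are given for the SMC1-labelled list and then for the CTCF-labelled list. Long loops numbered 1756 and 6217 at a span of at least 400 kb, 159 and 751 at 750 kb, and 440 and 1748 with 1 loop per group of neighbours. At 750 kb the median count over expected was 8.17 and 8.78, CTCF peaks were at both anchors of 73.6% and 79.8%, and in the CTCF-labelled list SMC1 peaks were at both anchors of 87.1%, 31.96% were matched and 81.6% were convergent. With 1 loop per group, SMC1 peaks were at both anchors of 92.0% and 97.1%, CTCF peaks of 86.6% and 91.9%, and 89.1% and 22.3% were matched. In the CTCF-labelled list the median ratio was then 8.04 and 80.8% were convergent. With an FDR of at most 0.0001 the median ratio was 7.41 and 7.96. With the summit inside the anchor, SMC1 peaks were at both anchors of 67.2% and 72.2% and CTCF peaks of 63.3% and 64.7%, and counting only peaks with -log10 q at or above 10 the shares were 72.8% and 77.8%, and 65.9% and 68.7%. Coding starts inside the anchor gave 26.7% and 19.1%, and starts of all annotated genes 55.2% and 45.5%, with medians of 11 and 10 genes between the anchors. Without tolerance 75.4% and 18.7% were matched, and with 25 kb 93.4% and 41.0%. The convergent share was 70.2% and 67.7% with matches of at least 7 bits, 83.0% and 82.5% with 13 bits, 62.4% and 64.4% with the best hit anywhere in the anchor, and 81.5% in the CTCF-labelled list within 400 bp, a window added after the data were seen. Under the overlap, gene, tolerance and motif rules the long loops kept their order against the shorter ones, except for matches of the SMC1-labelled list, where 75.4% without tolerance was above the 68.8% of the shorter loops. Low counts, the floor of 12 read pairs and the pooled lists limit all of these values.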
